A study of Homo sapiens with 3 samples.

Results

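SENP3 and the other genes described here encode the small ubiquitin-like modifiers SUMO2 and SUMO3 and the SENP proteases that remove them from proteins. They were chosen by name, as SENP1, SENP2, SENP3, SENP5, SENP6, SENP7, SUMO2 and SUMO3, after SENP3 had been seen among the lowest genes of the treated cells, so the values of SENP3 are a description and no support for its own choice. All 8 were found among the 16793 gene symbols with a value. RNA came from H446 cells, a line established from human small cell lung cancer, grown in medium with fetal bovine serum. The cells received vehicle or 3-bromoascochlorin (BAS), a bromine-bearing relative of ascochlorin, which fungi make, in doses of 5 µM or 10 µM over 48 h. Each group was 1 library, so the spread between cultures is unmeasured and no test is given. What the vehicle was is not stated in the sources used here. The file headers name the treated libraries by codes that do not spell out the dose, and each dose is taken from the sample's label.

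SUMO proteins are attached to lysines of other proteins by an E1 enzyme (SAE1 with UBA2), an E2 enzyme and a set of ligases, and the attachment alters binding, location or stability of the target. SENP proteases both trim the SUMO precursors and detach SUMO again. SENP1 and SENP2 act on several SUMO forms, SENP3 and SENP5 reside largely in the nucleolus and prefer SUMO2 and SUMO3, and SENP6 and SENP7 shorten chains of SUMO2 and SUMO3.

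Sequences matter here because reads of 50 bases had to be assigned to genes that overlap or resemble each other, and how the authors counted shared reads is not given in the sources used here. SENP3 lies on chromosome 17 just before EIF4A1, and GENCODE 29 (GRCh38, plus strand) also lists a read-through transcript, SENP3-EIF4A1, that runs through the exons of both. Of the 50-base sequences in the longest SENP3 transcript, 57.1% also occur in that read-through, and 1.17% occur in other genes. For EIF4A1 the share found in the read-through was 83.0%. Some other gene held each of its 50-base sequences (100%), and genes other than the read-through, most of them EIF4A1 pseudogenes, held 95.1%. The levels of both genes are uncertain for this reason. SENP3-EIF4A1 was not among the 16793 gene symbols with a value, so no level of it is given. The transcripts part 2121 bases into the 2611 bases of SENP3, where SENP3 goes on to its stop codon and the read-through is spliced onward. The stretches below start at base 2097 of SENP3 but at base 1487 of the read-through. Not all of the SENP3 sequence before that point is therefore in the read-through. In both stretches the lower case is the shared SENP3 coding sequence and the capitals are what follows in each transcript. The capitals of SENP3 end with its stop codon.
SENP3: agctgtgtcactgcaaactcactgtGTGA
SENP3-EIF4A1: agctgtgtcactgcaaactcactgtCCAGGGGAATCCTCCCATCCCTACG

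SUMO2 and SUMO3 encode nearly identical proteins, and their coding sequences were 81.9% identical over 282 aligned bases (GENCODE 29). The next 2 stretches show the 50 coding bases in which SUMO2 and SUMO3 differ least, with each difference from SUMO2 in capitals. SUMO3 differs from SUMO2 there at 4 bases.
SUMO2: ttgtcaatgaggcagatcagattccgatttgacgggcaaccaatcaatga
SUMO3: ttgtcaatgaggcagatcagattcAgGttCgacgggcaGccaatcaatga
Of the 50-base sequences of SUMO3, 0% occurred in another gene, and for SUMO2 the share was 8.56%. For SENP2 and SENP5 it was 1.52% and 1.17%, and SENP6 and SENP7 shared 0%. SENP3 was thus the 1 member of 8 for which more than 50% of its 50-base sequences are found in another gene.

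The libraries summed to 487923 to 507342 FPKM (sequenced fragments divided by transcript length and library size), a unit that corrects for length and so allows levels of different genes to be set side by side. The files hold no counts, so the depth behind each value, and with it the counting error, is unknown. Differences are of log2(FPKM + 1), which understates those of low genes, and the 2-fold limit, past which a gene is called higher or lower, is a difference of at least 1 in size. The background is the 11512 genes whose mean of the 3 values reached 1 FPKM, and all 8 members were among them. Over these genes the median difference was 0.02 at 5 µM and 0.05 at 10 µM. Of 9 measured markers of small cell lung cancer and neuroendocrine cells, 8 were at or above 1 FPKM in each library, with NEUROD1 at 91.62 to 104.96 FPKM, while POU2F3 did not exceed 0.07 FPKM. Their sum was 337.81 FPKM with vehicle, 398.59 FPKM with 5 µM BAS and 465.37 FPKM with 10 µM BAS. Single markers lay on both sides of vehicle. In the order vehicle, 5 µM and 10 µM, UCHL1 was at 82.21, 131.19 and 176.51 FPKM. NEUROD1 was at 104.96, 93.15 and 91.62 FPKM and SYP at 17.3, 12.77 and 13.25 FPKM. The 3 measured immune markers summed to 1.11 to 1.44 FPKM. Of the fibroblast markers COL1A1, COL3A1 and PDGFRB, which summed to 361.47, 520.93 and 553.08 FPKM in these libraries, PDGFRB was at 0.77 to 1.15 FPKM. Of the endothelial markers, CDH5 was at 51.99 to 57.56 FPKM and PECAM1 at 0.10 to 0.16 FPKM. The part of these marker levels in the results was not tested.

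SENP3, the nucleolar protease for SUMO2 and SUMO3, had 186.12 FPKM in the vehicle library, 121.18 FPKM with 5 µM BAS and 61.61 FPKM with 10 µM BAS. Each higher dose thus had the lower value. The ratio to vehicle was 0.651 at 5 µM and 0.331 at 10 µM, and the ratio of 10 µM to 5 µM was 0.508. On the log2(FPKM + 1) scale the differences were −0.61, −1.58 and −0.96. At 10 µM against vehicle 8 genes of 11512 had a lower difference than SENP3, at 10 µM against 5 µM 6 genes, and at 5 µM against vehicle 150 genes. In bulk RNA, fewer cells with the transcript and less of it per cell cannot be told apart.

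Among the members, 1 of 8 (SENP3) was called 2-fold lower at 10 µM against vehicle, where 0.643% of all genes were, and 0 were called higher, where 1.31% of all genes were. At 5 µM against vehicle 0 members were called in either direction, beside 0.208% of all genes called lower and 0.539% called higher. At 10 µM against 5 µM 0 members were called, beside 0.0434% of all genes in each direction. That last background was 5 genes higher and 5 lower, and with median-ratio scaling it was 2 higher and 7 lower, and SENP3 was among the 7. At a smaller limit of 1.5-fold, SENP3 was the 1 member called lower in each of the 3 comparisons and 0 members were called higher. Of all genes, 1.6% were lower and 3.01% higher at 5 µM, 3.44% lower and 6.04% higher at 10 µM, and 0.408% lower and 0.434% higher between doses. SENP3 was chosen for these values, so nothing is read from its place among all genes.

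**Figure D1:**
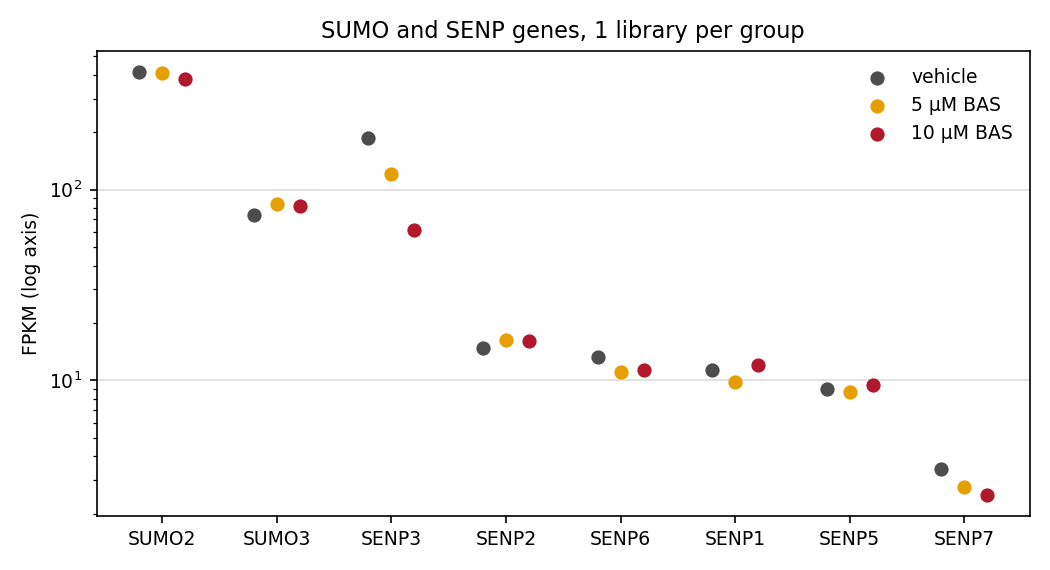
FPKM on a log axis of the SUMO and SENP genes, with 1 point per library (vehicle, 5 µM BAS and 10 µM BAS). SENP3 steps down from 186.12 to 121.18 and 61.61 FPKM, while the points of each other gene lie close together.

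The modifiers themselves differed little between libraries. SUMO2 was the highest of the members in each library, at 414.6 FPKM with vehicle, 410.42 FPKM with 5 µM BAS and 378.19 FPKM with 10 µM BAS. The value at 10 µM was 0.912 times vehicle, a log2 difference of −0.13, and 65.2% of all genes lay further from 0 in that comparison. SUMO3 was at 73.72, 84.06 and 82.24 FPKM in the order vehicle, 5 µM and 10 µM, so that both treated libraries were above vehicle, by 0.19 and 0.16 on the log2 scale. The ratio of SUMO2 to SUMO3 was 5.62 with vehicle, 4.88 with 5 µM BAS and 4.60 with 10 µM BAS. SUMO4, a relative of SUMO2, was at 0.6, 0.75 and 0.37 FPKM and did not pass the filter.

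The other SENP genes stood far below SENP3 in the vehicle library, and none of the 5 was called. SENP1 had 11.37 FPKM with vehicle, 9.82 FPKM with 5 µM BAS and 12.09 FPKM with 10 µM BAS, so that the doses lay on opposite sides of vehicle. SENP2 was at 14.86, 16.21 and 16 FPKM, with both treated libraries above vehicle by 0.12 and 0.10 on the log2 scale. SENP5, the closest relative of SENP3, was at 8.99, 8.73 and 9.47 FPKM, differences of −0.04 and 0.07 from vehicle. The SENP5 values did not step down with dose as those of SENP3 did. The ratio of SENP3 to SENP5 in FPKM was 20.7 with vehicle, 13.9 with 5 µM BAS and 6.51 with 10 µM BAS. That fall reflects mainly SENP3, which was chosen for its values, so the ratio is a description.

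The proteases of SUMO chains were the other SENP genes below vehicle at both doses. SENP6 had 13.3 FPKM with vehicle, 11.13 FPKM with 5 µM BAS and 11.29 FPKM with 10 µM BAS, which is 0.837 and 0.849 times vehicle. SENP7, the lowest of the members, was at 3.43, 2.76 and 2.52 FPKM, or 0.805 and 0.735 times vehicle. On the log2 scale SENP7 differed by −0.24 at 5 µM and −0.33 at 10 µM, and 34.8% of all genes lay further from 0 at 5 µM. Without SENP3, the 7 other members ranged from −0.24 (SENP6) to 0.19 (SUMO3) at 5 µM and from −0.33 (SENP7) to 0.16 (SUMO3) at 10 µM. Their medians were −0.04 and 0.07, where those of all genes were 0.02 and 0.05.

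By FPKM, SENP3 was the largest part of the SENP family in every library, by a smaller margin at each dose. Its level is uncertain, since 57.1% of its 50-base sequences also occur in the read-through, and the shares below carry that limit. The 6 SENP genes summed to 238.07 FPKM with vehicle, 169.83 FPKM with 5 µM BAS and 112.98 FPKM with 10 µM BAS, and SENP3 made up 78.2%, 71.4% and 54.5% of these sums. The 5 others summed to 51.95, 48.65 and 51.37 FPKM. The family sum thus differed between libraries mainly by SENP3. Among the genes past the filter, SENP3 was at rank 323 by FPKM with vehicle, rank 580 at 5 µM and rank 1296 at 10 µM. Within the members it was second to SUMO2 with vehicle and at 5 µM, and behind SUMO2 and SUMO3 at 10 µM. With no replicates, the order of close neighbours such as SENP6, SENP1 and SENP5 cannot be told from library error.

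**Figure D2:**
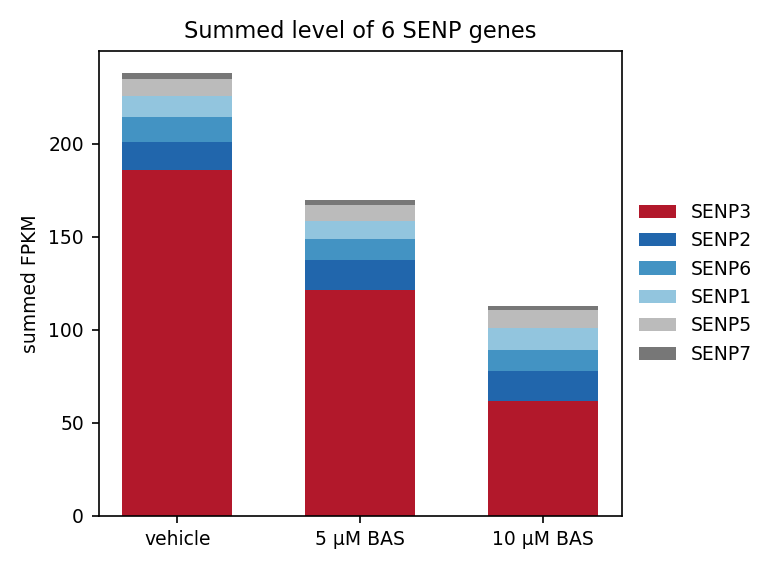
Stacked bars of FPKM for 6 SENP genes in the vehicle, 5 µM and 10 µM BAS libraries, with the bar height as their sum. The SENP3 segment shrinks from 186.12 to 61.61 FPKM, and the other 5 segments together stay between 48.65 and 51.95 FPKM.

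The rest of the SUMO pathway was taken from lists of its enzymes and binding factors. Of 26 such genes outside the members, 25 passed the filter, and 0 were called 2-fold in any of the 3 comparisons. Of all genes, 0.208% were called lower and 0.539% higher at 5 µM, and 0.643% and 1.31% at 10 µM. Between doses 0.0434% were called in each direction, so 0 of 25 lies near these shares. The median difference of the 25 genes was −0.03 at 5 µM, where 14 were below vehicle, and −0.04 at 10 µM, where 16 were below vehicle. Of all genes, 46.6% and 43.3% were below vehicle. The E1 subunit genes SAE1 (152.01, 162.06 and 147.24 FPKM) and UBA2 (99.13, 99.55 and 96.63 FPKM) lay close to vehicle, at log2 differences of 0.09 and −0.05 for SAE1 and of 0.01 and −0.04 for UBA2, whose 5 µM value was below 0 under each of 3 rescalings.

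SUMO ligases, which speed the transfer to chosen targets, were mostly below vehicle. Below vehicle were 9 of 11 ligase genes at 5 µM (median −0.19) and 8 at 10 µM (median −0.12), and 2 and 3 were above. Of all genes, 46.6% and 43.3% were below vehicle, and of 10 reference housekeeping genes 8 and 9 were. The ligases named here are among those below. NSMCE2, the ligase of the SMC5/6 genome maintenance complex, was at 18.15, 14.07 and 11.88 FPKM. It had the lowest difference of the ligase list at 10 µM, −0.57. Over the alternative settings that difference of NSMCE2 reached −0.63, so it lay on both sides of the 1.5-fold limit. TRIM28, a corepressor that also acts as a ligase, was at 384.59, 334.45 and 299.91 FPKM, or 0.780 times vehicle at 10 µM. PIAS1 was at 12.26, 9.96 and 9.44 FPKM.

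The 3 SUMO proteases outside the SENP family lay near vehicle. USPL1 was at 5.9, 6.38 and 5.87 FPKM, DESI1 at 11.83, 11.97 and 12.72 FPKM and DESI2 at 20.3, 21.21 and 23.63 FPKM. Among 7 genes of ubiquitin ligases that recognise SUMO chains and of SUMO-bound factors, differences at 10 µM ran from −0.13 for SLX4, a nuclease scaffold, to 0.13 for PML, the organizer of PML nuclear bodies. RNF111, a ligase for SUMO-marked proteins, was at 8.47, 7.39 and 7.7 FPKM. RANGAP1, a prominent SUMO-bound protein of the nuclear pore, was at 40.04, 43.99 and 42.16 FPKM.

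**Figure D3:**
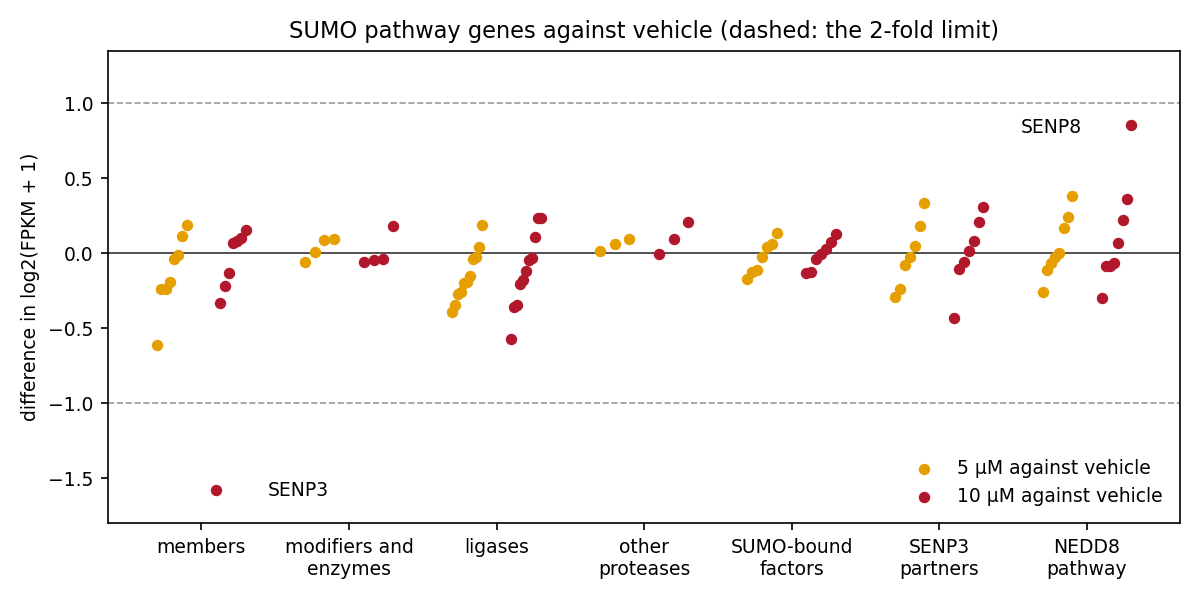
Differences from vehicle in log2(FPKM + 1) at 5 µM and 10 µM BAS, with 1 point per gene past the filter, by role, and dashed lines at the 2-fold limit of 1. SENP3 at 10 µM (−1.58) is the 1 point beyond a dashed line, and SENP8 (0.85) is the highest point.

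SENP8 carries the family name but removes the modifier NEDD8 rather than SUMO, and it went the other way. It had 1.65 FPKM with vehicle, 2.45 FPKM with 5 µM BAS and 3.79 FPKM with 10 µM BAS. The ratio to vehicle at 10 µM was 2.30 in FPKM, and the log2(FPKM + 1) difference of 0.85 was under the limit for this low gene, or 1.15 with a pseudocount of 0.1 FPKM. Of the 8 genes of the NEDD8 pathway, 0 were called 2-fold, their median being −0.01 at 5 µM and 0.00 at 10 µM. Of all genes, 0.208% were called lower and 0.539% higher at 5 µM, and 0.643% and 1.31% at 10 µM. NEDD8 itself was at 298.54, 275.66 and 242.11 FPKM, the E2 enzyme gene UBE2M at 141.49, 167.74 and 181.79 FPKM, and UBE2F, the other E2, at 10.32, 11.69 and 12.21 FPKM.

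SENP3 removes SUMO from factors of ribosome assembly in the nucleolus, and 7 genes of such partners were examined. Of these 0 were called, and 4 were above vehicle at 10 µM and 3 below. Of all genes, 0.643% were called lower and 1.31% higher at 10 µM, and 43.3% were below vehicle. The counts of the partners are near these shares. NPM1 (nucleophosmin), a known substrate, was at 965.83, 786.9 and 714.03 FPKM, a difference of −0.44 at 10 µM, and 44.4% of its 50-base sequences occur in other genes. WDR18, which binds the substrate PELP1, was at 156.96, 197.82 and 181.11 FPKM and NOL9, a polynucleotide kinase of ribosomal RNA processing, at 9.82, 11.26 and 12.4 FPKM. MDN1, the large ATPase of the pathway, was at 6.24, 5.13 and 5.72 FPKM.

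The neighbours of SENP3 on chromosome 17 lay on both sides of vehicle (gene order from RefSeq, GRCh38.p14; the files use hg19, so no coordinates are given). EIF4A1, the RNA helicase gene that follows SENP3, had 647.47 FPKM with vehicle, 525.84 FPKM with 5 µM BAS and 426.56 FPKM with 10 µM BAS. These values step down in the same order as SENP3, at 0.812 and 0.659 times vehicle, and the ratio of SENP3 to EIF4A1 was 0.287, 0.230 and 0.144. The next genes were higher than vehicle. CD68, a lysosomal glycoprotein gene known as a macrophage marker, was at 2.85, 6.05 and 7.34 FPKM, differences of 0.87 and 1.12, and 97.4% of its 50-base sequences occur in other annotated genes. MPDU1, which serves protein glycosylation, was at 56.98, 89.09 and 102.73 FPKM, differences of 0.64 and 0.84. FXR2 was at 25.51, 23.81 and 25.26 FPKM and SAT2 at 28.74, 24.45 and 23.93 FPKM. On the upstream side TNFSF13 was at 3.19, 2.71 and 2.63 FPKM.

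**Figure D4:**
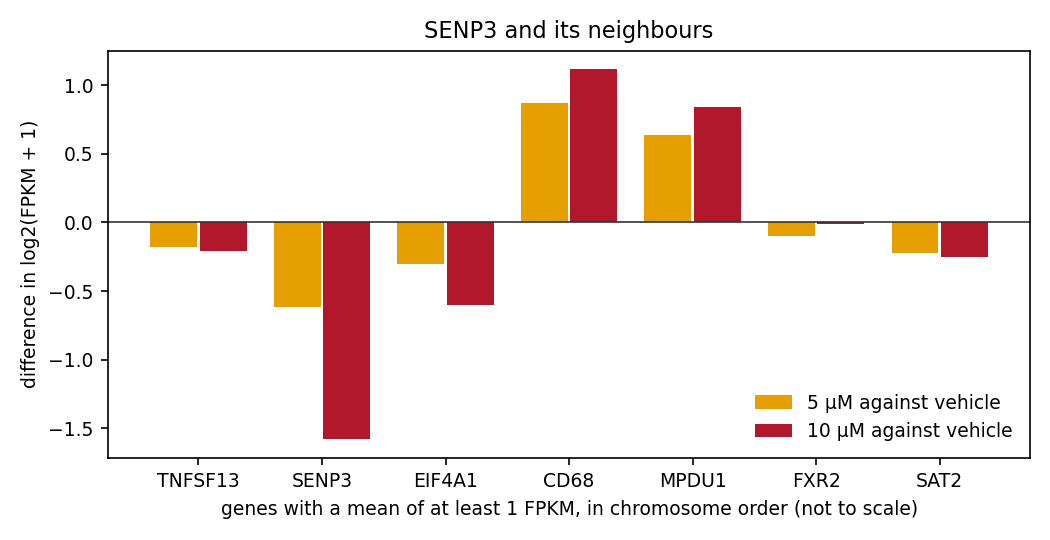
Differences from vehicle in log2(FPKM + 1) at 5 µM and 10 µM BAS for the genes around SENP3 that passed the filter of 1 FPKM, in chromosome order and not to scale. SENP3 and EIF4A1 are lower (−1.58 and −0.60 at 10 µM), and the next 2 genes, CD68 and MPDU1, are higher (1.12 and 0.84).

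The 6 genes whose pair of log2 differences from vehicle was nearest to that of SENP3, by Euclidean distance over the 2 doses, were GAGE12D, HIST1H2AG, DTX4, NME1-NME2, LCMT2 and HIST1H2BJ, at distances of 0.10 to 0.30. These places hold for the pseudocount of 1 FPKM. With 0.1 FPKM, tried after seeing the data, 0 of these genes were among the 6 nearest, and the distances were 0.23 for DTX4, 0.40 for NME1-NME2 and LCMT2, 1.09 for HIST1H2AG, 1.26 for HIST1H2BJ and 2.88 for GAGE12D. With 3 libraries and a shared vehicle value, this likeness is a description. DTX4, a ubiquitin ligase gene, also matched SENP3 in level, at 170.18, 99.69 and 63.45 FPKM. LCMT2, a tRNA modification gene, was at 8.76, 4.34 and 2.59 FPKM. The histone genes HIST1H2AG (2.58, 1.47 and 0.32 FPKM) and HIST1H2BJ (1.99, 1.18 and 0.19 FPKM) were low in every library. GAGE12D, of a multicopy cancer-testis family, was at 2.11 and 1.15 FPKM and listed at 0 at 10 µM. NME1-NME2, itself a read-through of adjacent genes, was at 20.98, 11.49 and 5.53 FPKM. Of the 50-base sequences of GAGE12D 100% occur in other genes, of NME1-NME2 96.2%, and of DTX4 0.519%.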

How the data were processed

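The deposited values are FPKM per gene symbol, per the file headers, for 1 library each of vehicle, 5 µM and 10 µM BAS. The submitters' processing notes name Cufflinks, Cuffdiff, Bowtie2, BWA, Trim Galore and build hg19. How each tool was run, its version, the annotation and whether libraries were scaled to each other is not given in the sources used here. Depth is unknown. The 2 symbols in more than 1 row were summed. From these values, differences of log2(FPKM + 1) and a limit of 1 were computed for the 11512 genes whose mean reached 1 FPKM, with Python 3.11.15, numpy 2.4.6 and pandas 2.3.3, and the steps were tested on simulated data. No test was possible with 1 library per group. Members and 9 other gene lists were chosen with earlier results of these data known. Named genes are the members, the conjugation enzymes, up to 4 per other list with the largest difference at 10 µM, EIF4A1 and the 6 nearest to SENP3; other names, such as PDGFRB, TNFSF13, FXR2, SAT2 and the markers, were added after their values were seen. Shared 50-base sequences were counted on both strands in GENCODE 29, in the longest protein-coding transcript per symbol against the transcripts of all other genes. Alternatives were pseudocounts of 0.1 and 0.5, no filter or one of 5 FPKM, median-ratio, total and quantile scaling, duplicated symbols left out, limits of 1.5-fold and 4-fold, and genes under 50% shared sequence. Some genes and sequences of these lists are not reported here by name, though the counts and medians of the lists include them.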

Additional observations from a re-analysis of the deposited data

How the results depend on the processing

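SENP3 kept its direction and its side of the 2-fold limit against vehicle in the 8 alternatives of pseudocount, filter, scaling and duplicates, with differences of −0.67 to −0.61 at 5 µM and −1.64 to −1.58 at 10 µM. Between doses its highest value was −0.92, and with median-ratio scaling 1 member in place of 0 was called lower there. At a limit of 1.5-fold, 1 member was lower at 5 µM and 1 between doses, and at 4-fold 0 were lower at 10 µM. With genes of at least 50% shared sequence left out, SENP3 itself is removed and 0 members were lower at 10 µM. Among all genes, the counts higher and lower at 5 µM (62 and 24) were 143 and 53 with a pseudocount of 0.1, and 13 were lower with the filter at 5 FPKM. At 10 µM (151 and 74) they were 273 and 145 with that pseudocount, and 95 and 42 with that filter. Between doses (5 and 5) they were 23 and 18 with a pseudocount of 0.1, 16 and 11 with 0.5, and 2 and 2 with the filter at 5 FPKM. Between doses 8 were higher with no filter, 2 higher and 7 lower with median-ratio scaling, and 2 higher and 6 lower with quantile normalization. At 1.5-fold the counts were 346 and 184 at 5 µM, 695 and 396 at 10 µM, and 50 and 47 between doses, and at 4-fold 3 and 2, 18 and 4, and 0 and 0. Between doses the signs of SENP2, SENP6, SUMO2 and SUMO3 changed with the scaling, so no direction is given for them there. Unknown depth limits every value, and with 1 library per group no difference can be set against the spread between cultures.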

Other observations

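Partners and relatives of EIF4A1, the helicase gene beside SENP3, were examined as a list of 8 genes of translation initiation. Of these, 0 were called 2-fold and 6 were below vehicle at each dose. In the background, 2-fold calls made up 0.208% (lower) and 0.539% (higher) with 5 µM BAS. With 10 µM BAS they made up 0.643% and 1.31%, so 0 of 8 lies near these shares. The background share with a value under vehicle was 46.6% for the lower dose and 43.3% for the higher. The medians of the list were −0.16 at 5 µM and −0.21 at 10 µM, where those of all genes were 0.02 and 0.05. EIF4A2, the close paralog of EIF4A1 on another chromosome, had 153.45 FPKM with vehicle, 110.14 FPKM with 5 µM BAS and 81.74 FPKM with 10 µM BAS, or 0.718 and 0.533 times vehicle, below the ratios of EIF4A1. At 1.5-fold, where 3.44% of all genes were lower at 10 µM, so were 2 genes of the list, EIF4A1 and EIF4A2, and EIF4A1 (−0.60) was not past that limit with quantile normalization (−0.54). EIF4B, which stimulates the helicase, was at 185.65, 168.02 and 133.81 FPKM. PDCD4, an inhibitor of EIF4A, was at 18.51, 22.44 and 24.32 FPKM, above vehicle at both doses. For EIF4A2, 8.18% of the 50-base sequences occur in other genes, for EIF4B 37.1% and for PDCD4 34.1%.

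Of 10 reference housekeeping genes, 9 were below vehicle at 10 µM and 0 were called, with medians of −0.06 at 5 µM and −0.18 at 10 µM. Of all genes, 43.3% were below vehicle at 10 µM, and 0.643% were called lower and 1.31% higher. PPIA was at 2412.48, 1936.64 and 1712.72 FPKM, GAPDH at 4423.66, 3612.26 and 3336.99 FPKM, and SDHA at 129.18, 127.41 and 111.91 FPKM. B2M was the 1 gene of the list above vehicle at 10 µM, at 185.51, 232.78 and 243.12 FPKM.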
